A study of Homo sapiens with 41 samples.

Results

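The smooth muscle contractile genes described here are ACTA2, ACTG2, TAGLN, CNN1, MYL9, TPM1, TPM2, MYH11, MYLK and LMOD1. They form a list of names, of genes whose products build and drive the contractile apparatus of smooth muscle and of activated stellate cells. The rule for the list used no measured value, but it was drawn up with earlier results of these data known. All 10 were found, by the symbol of their Ensembl ID, among the 58735 genes counted in each RNA sequencing library. Their counts were followed across 16 groups of cell line, hairpin and condition.

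In smooth muscle, myosin filaments pull on thin filaments made of actin. ACTA2 and ACTG2 are the vascular and enteric smooth muscle actins, TPM1 and TPM2 are tropomyosins that lie along the actin filament, and LMOD1 is a leiomodin that nucleates new filaments. TAGLN (transgelin, SM22) and CNN1 (calponin) bind actin, MYH11 is the smooth muscle myosin heavy chain, MYL9 is a regulatory light chain, and MYLK is the calcium and calmodulin dependent kinase that phosphorylates that light chain. Many of these genes are controlled by SRF, a factor that binds the CArG box, together with myocardin (MYOCD) or the myocardin related factors MRTFA and MRTFB. When a hepatic stellate cell becomes a myofibroblast it gains several of these proteins, and ACTA2 is the usual marker of that state.

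The series examined ATF4, a transcription factor that drives the integrated stress response, with RNA from 2 established human cell lines. LX-2 is an immortalised hepatic stellate cell line, and HMLE is an immortalised mammary epithelial cell line. Cells of each line had either the control hairpin (shCtrl) or one aimed at ATF4 (shATF4). Both lines were studied in DMSO, in thapsigargin, an inhibitor of the calcium pump of the endoplasmic reticulum, and under the label AA_Dep, read here as amino acid deprivation. The remaining condition was TGFbeta, the fibrogenic cytokine, in LX-2 and Twist_OE, overexpression of the transcription factor Twist, in HMLE. The labels name no empty-vector group and do not say whether Twist_OE cells had DMSO. Twist and the making of those cells therefore cannot be told apart in comparisons with DMSO. Doses, times and the hairpin sequences are not in the labels used here. Each group had 2 samples, with nothing to say that they came from separate cultures, so p-values measure the spread between these samples, which may be technical.

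LX-2 libraries held 14551191 to 18776430 counts each, and HMLE libraries 15956909 to 23243132. LX-2 shCtrl thapsigargin replicate 2 stood apart: its correlation with replicate 1 in log2 (CPM + 1) was 0.927, where the lowest of the other LX-2 pairs was 0.9957, and it held counts for 15840 genes, against 22912 to 24255. LX-2 tests therefore used the other 15 libraries, the lone shCtrl thapsigargin library was given the spread of the remaining groups, and results with all 16 stand beside those that change. Both HMLE shATF4 AA_Dep files were identical and counted as 1 library, treated in the same way, which left 31 libraries in the series. ATF4 itself in shATF4 cells was between 33.1% and 53.9% of the shCtrl level in LX-2, without the discordant library, and between 14.1% and 52.0% in HMLE. It was reduced least in DMSO in LX-2 (53.9%) and in Twist_OE in HMLE (52.0%), where the next highest share was 27.6%, in DMSO. In LX-2 shCtrl DMSO cells COL1A1 stood at 5119 CPM and PDGFRB at 80.7 CPM, while the stellate markers LRAT, GFAP, DCN, LUM and HAND2 were each below 1 CPM. The epithelial markers CDH1 and KRT5 were at 534 and 3045 CPM in HMLE shCtrl DMSO cells and at 0.0534 and 0 CPM in LX-2, where KRT5 had no count and could have stood at up to 0.0806 CPM.

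The promoters of 7 of the 10 genes are in the RefSeq table (GRCh38.p14), with 9 start sites in all. Those of 4 genes are printed here, as the 250 bases before the start site. Those of ACTA2, ACTG2 and MYLK hold the box to which SRF binds, and that of CNN1 is an example without it. Capitals mark a CArG box, either the strict form, which has only A and T in its core, or a form with 1 C or G there. Positions are GRCh38.p14, and the strand follows each range.
ACTA2 (second listed start, chr10:88952774-88953023, minus strand): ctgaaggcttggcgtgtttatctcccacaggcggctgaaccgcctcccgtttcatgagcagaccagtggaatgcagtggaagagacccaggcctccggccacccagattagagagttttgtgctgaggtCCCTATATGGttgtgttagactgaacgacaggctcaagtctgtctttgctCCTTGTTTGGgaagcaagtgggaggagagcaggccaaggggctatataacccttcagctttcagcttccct
ACTG2 (chr2:73892758-73893007, plus strand): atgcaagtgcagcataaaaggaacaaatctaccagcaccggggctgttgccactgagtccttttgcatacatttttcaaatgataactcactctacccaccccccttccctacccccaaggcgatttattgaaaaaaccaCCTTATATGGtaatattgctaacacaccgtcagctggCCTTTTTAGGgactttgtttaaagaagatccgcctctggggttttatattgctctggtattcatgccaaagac
MYLK (chr3:123620549-123620798, minus strand): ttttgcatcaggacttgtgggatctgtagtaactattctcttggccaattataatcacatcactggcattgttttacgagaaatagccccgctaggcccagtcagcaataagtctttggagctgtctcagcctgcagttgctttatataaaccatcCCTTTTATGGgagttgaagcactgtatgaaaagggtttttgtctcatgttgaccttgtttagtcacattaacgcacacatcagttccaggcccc
CNN1 (chr19:11538601-11538850, plus strand): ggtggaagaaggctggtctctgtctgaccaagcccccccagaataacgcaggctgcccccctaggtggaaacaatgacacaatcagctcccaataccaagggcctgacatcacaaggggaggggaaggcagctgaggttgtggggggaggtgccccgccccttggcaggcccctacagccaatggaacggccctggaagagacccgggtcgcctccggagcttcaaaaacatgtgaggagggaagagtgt
Both strands of the window from 250 bases before to 50 after the start were searched. The strict CArG box was found in ACTG2, starting 110 and 73 bases before the start site, and in MYLK, 94 bases before its only listed start. Starts that are not listed were not searched, and which product the listed MYLK start yields was not examined. The strict box is in 1.29% of all 35116 promoters of the same length. ACTA2 had boxes with 1 C or G in the core, 121 and 71 bases before its second listed start, a form held by 6.94% of all promoters. Neither form was in the windows of CNN1, TPM1, TPM2 and LMOD1 or of the first listed ACTA2 start. Sequence outside the windows was not searched. The E-box CANNTG was in 6 of the 9 start site windows, near its share of 68.7% over all promoters. The TEAD motif GGAATG was in ACTA2, MYLK and LMOD1, 3 of the 9 windows against 14.0%, and the composite motif TGATGNAA, bound by ATF4 with C/EBP factors, was in 1 of them, that of MYLK, against 3.62%. A match describes the letters of the window and is not a measured binding site.

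In DMSO, every one of the genes was higher in LX-2 than in HMLE. The 10 of 10 compare with 70.4% of the 20308 genes tested in both lines that differed in either direction, and with 35.9% that were higher in LX-2. ACTA2 stood at 31.6 and 31.4 CPM in LX-2 and at 4.06 and 5.57 CPM in HMLE, a log2 difference of 2.52 ± 0.14 (SE, adjusted p = 6.8e-15). MYL9 stood at 1521 and 1694 CPM in LX-2 and at 2.38 and 2.64 CPM in HMLE, a ratio of means of 640-fold. TAGLN was 89.4-fold higher in LX-2 and MYLK 46.0-fold. The tropomyosins differed less: TPM1 was 9.11-fold and TPM2 2.9-fold higher in LX-2. CNN1 had 584 and 662 counts in LX-2 and none in either HMLE library, so it was at least 481-fold higher, taking 3 counts over both HMLE libraries as the floor. ACTG2 had 4 and 2 counts, and MYH11 3 and 8, in the HMLE DMSO libraries, so their levels there rest on few reads. LX-2 and HMLE values did not overlap for any of the genes, which was not counted over all genes. MYOCD stood at 27.1 and 20.0 CPM in LX-2 and had a single count over both HMLE DMSO libraries.

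TGFbeta split the genes in LX-2 shCtrl cells rather than raising them together. ACTA2, TAGLN and TPM1 rose, MYLK, ACTG2 and LMOD1 fell, and CNN1, MYL9, TPM2 and MYH11 did not pass the test. The 6 of 10 stand beside 22.1% of the 18649 genes tested that changed in either direction, 11.1% higher and 11% lower. The median change over the 10 genes was -0.08 on the log2 scale, against 0 over all genes.

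ACTA2 read 31.6 and 31.4 CPM in DMSO and 46.5 and 49.2 CPM in TGFbeta, a log2 change of 0.73 ± 0.12 (SE, adjusted p = 0.00038). TAGLN went from 592 and 652 CPM to 816 and 766 CPM (log2 change 0.48 ± 0.10, adjusted p = 0.002). TPM1 read 858 CPM in both DMSO libraries and 1498 and 1549 CPM in TGFbeta (log2 change 0.96 ± 0.07, adjusted p = 3.5e-08). In these 3 genes both TGFbeta libraries were above both DMSO libraries.

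MYLK, the light chain kinase, read 785 and 649.9 CPM in DMSO and 357 and 329.6 CPM in TGFbeta (log2 change -0.93 ± 0.09, adjusted p = 1.5e-06). ACTG2 went from 62.0 and 63.4 CPM to 36.7 and 34.4 CPM (log2 change -0.69 ± 0.11, adjusted p = 0.0002), so the 2 smooth muscle actins moved in opposite directions. LMOD1 went from 6.89 and 7.14 CPM to 3.48 and 3.14 CPM (log2 change -0.95 ± 0.22, adjusted p = 0.0048). MYL9 read 1464 and 1552 CPM in TGFbeta, overlapping its DMSO range of 1521 to 1694 CPM. CNN1 read 31.1 and 30.9 CPM against 31.2 and 35.8 CPM and did not pass (log2 change 0.02, adjusted p = 0.95). Its sign differs from that of the CPM means because the log2 changes are TMM scaled and CPM is not. That scaling added 0.13 to every log2 change in this comparison. LMOD1 did not pass without shCtrl TGFbeta replicate 2. With all 16 libraries in the fit, TPM1 alone of the 10 passed the test (log2 change 0.95, adjusted p = 0.0032). That fit called 560 of 17772 genes tested for TGFbeta in shCtrl cells.

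The same comparison in shATF4 cells, added after the data were seen, gave ACTA2, TAGLN and TPM1 higher and MYLK lower, 4 of 10 against 27.6% of all genes. Log2 changes there were 1.02 for ACTA2, 1.01 for TAGLN, 1.20 for TPM1 and -0.99 for MYLK. ACTG2, which fell in shCtrl cells, stood at 32.6 and 29.0 CPM in DMSO and 29.1 and 26.0 CPM in TGFbeta (log2 change -0.03, adjusted p = 0.87). Tested directly, no difference between the hairpins in the TGFbeta response passed for any of the genes, against 0.987% of all genes, 0.563% higher and 0.424% lower in shATF4 cells. ACTG2 came nearest, with a difference of 0.66 ± 0.15 (adjusted p = 0.058), followed by TAGLN with 0.53 ± 0.14 (adjusted p = 0.092). At an unadjusted p under 0.05 the count was 3. DESeq2 called 1, TAGLN, and a fit of the compared groups alone called TAGLN and ACTG2.

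**Figure D1:**
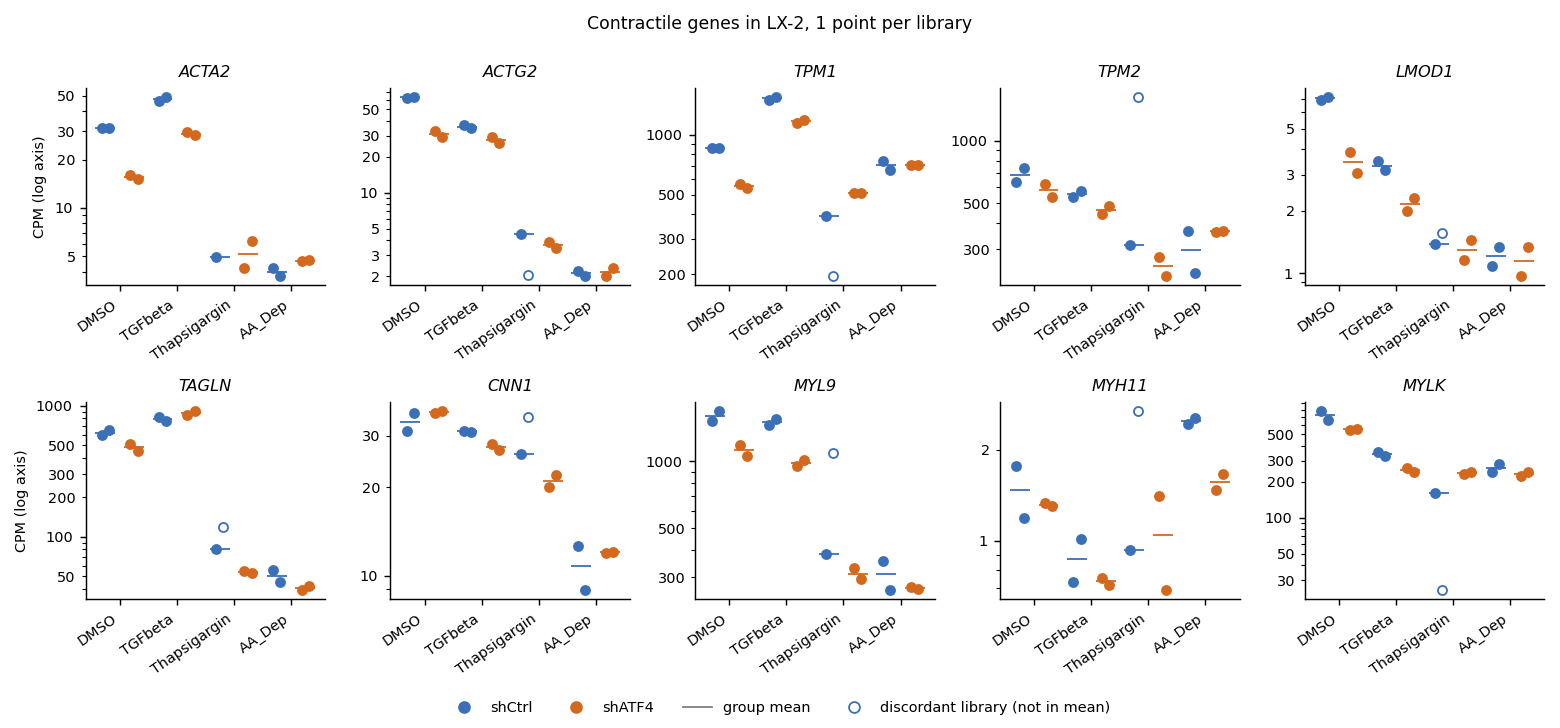
CPM of the 10 genes in LX-2 on log axes, 1 point per library, blue for shCtrl and orange for shATF4, with a line at the group mean. Open circles are the discordant shCtrl thapsigargin library, in which ACTA2 had no count and is not drawn. In shCtrl cells 9 genes fell under thapsigargin and under AA_Dep, all but MYH11, while TGFbeta raised ACTA2, TAGLN and TPM1 and lowered MYLK, ACTG2 and LMOD1.

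Thapsigargin and AA_Dep lowered nearly all of the genes in LX-2. Under AA_Dep in shCtrl cells 9 of 10 fell and MYH11 did not pass the test, against 45.6% of all genes changed and 22.7% lower. The median change of the 10 was -2.03 on the log2 scale, against 0.02 over all genes. With all 16 libraries 7 of the 10 fell, without TPM1 and TPM2. Summed levels of other marker sets were lower too, shCtrl DMSO against AA_Dep, though single markers moved in both directions. The summed level of 15 stellate and fibroblast markers was 7259 to 7536 against 3124 to 3302 CPM, with 5 of 14 tested higher and 8 lower. Most of the DMSO sum was COL1A1. VIM, also in that list, read 1535 and 1599 CPM in DMSO and 1957 and 2227 CPM under AA_Dep. The sum of 10 mesenchymal markers was 7600.1 to 8435 against 3724 to 4387 CPM, with 2 higher and 3 lower. That of 16 epithelial markers was 956 to 1076 against 554 to 665 CPM, with 1 of 9 higher and 5 lower. KRT5 and KRT6A were at 0 in both groups, and EPCAM, KRT14, KRT17, TP63, OVOL1 and GRHL2 under AA_Dep. The part of these markers in the result was not tested.

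ACTG2 read 62.0 and 63.4 CPM in DMSO and 2.21 and 2.02 CPM under AA_Dep, a log2 change of -4.90 ± 0.15 (SE, adjusted p = 1.1e-12). TAGLN went from 592 and 652 CPM to 55.7 and 45.0 CPM (log2 change -3.65 ± 0.11, adjusted p = 1.2e-12), and ACTA2 from 31.6 and 31.4 CPM to 4.20 and 3.75 CPM (log2 change -3.00 ± 0.15, adjusted p = 3.1e-10). Both deprived libraries were far below both DMSO libraries in these genes, and the ratio of means was 29.7-fold for ACTG2, 12.4-fold for TAGLN and 7.92-fold for ACTA2.

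MYL9 read 356 and 263 CPM under AA_Dep (log2 change -2.40 ± 0.12, adjusted p = 2.8e-10). LMOD1 read 1.08 and 1.33 CPM (log2 change -2.56 ± 0.25), CNN1 12.6 and 8.95 CPM (log2 change -1.66 ± 0.14) and MYLK 243 and 280.2 CPM (log2 change -1.48 ± 0.09). TPM2 read 367 and 229.8 CPM, a wide pair that still lay below the DMSO libraries at 636 and 737 CPM. TPM1 changed little, from 858 CPM to 741 and 662 CPM (log2 change -0.31 ± 0.07, adjusted p = 0.0012), and did not pass when only the compared groups were fitted (adjusted p = 0.091). MYH11 stood at 33 and 22 counts in the DMSO libraries and 45 and 44 counts under AA_Dep (log2 change 0.73, adjusted p = 0.084).

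The thapsigargin response of shCtrl cells rests on 1 library. In that library 9 of the 10 fell against DMSO, beside 40.5% of all genes changed, 20.2% higher and 20.4% lower. ACTG2 read 4.47 CPM (log2 change -3.91 ± 0.18), TAGLN 81.3 CPM (-3.04 ± 0.14), ACTA2 4.94 CPM (-2.77 ± 0.19), MYLK 161 CPM (-2.26 ± 0.12) and MYL9 384 CPM (-2.17 ± 0.15). The discordant library disagreed in both directions: it had no ACTA2 count, MYLK at 24.8 CPM and ACTG2 at 2.03 CPM, but MYL9 at 1086 CPM, CNN1 at 34.6 CPM and TPM2 at 1632 CPM. With both libraries in the fit 6 of the 10 fell, namely ACTA2, ACTG2, TAGLN, TPM1, MYLK and LMOD1, and the estimates for CNN1 and TPM2 changed sign, to 0.33 and 1.20.

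Thapsigargin in shATF4 cells had 2 concordant libraries. There 9 of 10 fell, beside 37.1% of all genes changed and 19.2% lower, a comparison added after the data were seen. TAGLN went from 513 and 449 CPM in DMSO to 55.3 and 53.1 CPM (log2 change -3.22 ± 0.11, adjusted p = 5.2e-12). ACTG2 went from 32.6 and 29.0 CPM to 3.85 and 3.44 CPM (log2 change -3.14 ± 0.14, adjusted p = 1.3e-10), and MYL9 from 1188 and 1062 CPM to 331 and 294 CPM (log2 change -1.92 ± 0.12, adjusted p = 5.1e-09). ACTA2 fell by 1.67 on the log2 scale, LMOD1 by 1.47, TPM2 by 1.29, MYLK by 1.28, CNN1 by 0.85 and TPM1 by 0.19. TPM1 did not pass with DESeq2 or when any 1 of the compared libraries was left out. With the discordant library in the fit, though not in the comparison, ACTG2, TAGLN and LMOD1 passed, 3 of the 10 beside 1397 of 17772 genes.

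AA_Dep in shATF4 cells, also added after the data were seen, lowered 8 of 10 and raised TPM1, beside 42.4% of all genes changed, 20.3% higher and 22.1% lower. ACTG2 went from 32.6 and 29.0 CPM to 1.99 and 2.32 CPM (log2 change -3.92 ± 0.15, adjusted p = 3.1e-11), and TAGLN from 513 and 449 CPM to 39.2 and 42.3 CPM (log2 change -3.65 ± 0.11, adjusted p = 2.2e-12). TPM1 read 569 and 542 CPM in DMSO and 704 and 708 CPM under AA_Dep (log2 change 0.26 ± 0.07, adjusted p = 0.0054), which did not pass without shATF4 DMSO replicate 2. With all 16 libraries 5 fell, beside 1515 of 17772 genes changed, and TPM1 did not pass.

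The ATF4 hairpin lowered most of the genes in resting LX-2 cells. In DMSO 7 of 10 fell, beside 11.6% of all genes changed, 6.28% higher and 5.3% lower, with a median of -0.47 on the log2 scale against 0.01 over all genes. ACTG2 read 62.0 and 63.4 CPM in shCtrl and 32.6 and 29.0 CPM in shATF4 cells (log2 change -1.04 ± 0.11, adjusted p = 1.3e-05). ACTA2 read 31.6 and 31.4 CPM against 16.1 and 15.2 CPM (log2 change -1.02 ± 0.13, adjusted p = 9e-05). LMOD1 read 6.89 and 7.14 CPM against 3.86 and 3.04 CPM (log2 change -1.04 ± 0.22, adjusted p = 0.0056). All shATF4 values of these genes lay below both shCtrl values.

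TPM1 fell less, from 858 CPM in both shCtrl libraries to 569 and 542 CPM (log2 change -0.64 ± 0.07, adjusted p = 1.3e-05). MYL9 read 1521 and 1694 CPM against 1188 and 1062 CPM (log2 change -0.53 ± 0.11, adjusted p = 0.0062). MYLK and TAGLN fell by 0.41 and 0.38, while CNN1 (0.10), TPM2 (-0.26) and MYH11 (-0.18) did not pass the test. Only ACTG2 passed with all 16 libraries in the fit (log2 change -1.05, adjusted p = 0.038), beside 43 of 17772 genes called there. Without shATF4 DMSO replicate 2 the count was 3, and without shCtrl DMSO replicate 2 it was 4. In these groups the summed level of 16 epithelial markers, mainly KRT8 and KRT18, was 956 to 1076 CPM in shCtrl and 489.8 to 510.0 CPM in shATF4 libraries, with 5 of 9 tested markers lower and 1 higher. KRT5 and KRT6A were at 0 in both groups. The stellate and fibroblast marker sum was 7259 to 7536 against 5169 to 5231 CPM, with 3 of 14 higher and 4 lower and LRAT at 0 in shATF4 cells. VIM of that list read 1535 and 1599 CPM in shCtrl and 2133 and 2098 CPM in shATF4 cells. The mesenchymal sum was 7600.1 to 8435 against 5761 to 5871 CPM, with 3 of 10 higher and 3 lower. The part of these markers in the result was not tested.

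In TGFbeta the hairpin lowered 5 of 10 genes, beside 21.7% of all genes changed and 10.7% lower. ACTA2 read 46.5 and 49.2 CPM in shCtrl and 29.7 and 28.3 CPM in shATF4 cells (log2 change -0.74 ± 0.12, adjusted p = 0.00048), so that the TGFbeta level under the hairpin was close to the untreated shCtrl level of 31.4 to 31.6 CPM. MYL9 read 1464 and 1552 CPM against 951 and 1016 CPM (log2 change -0.63 ± 0.11, adjusted p = 0.00087). TPM1 read 1498 and 1549 CPM against 1149 and 1185 CPM (log2 change -0.40 ± 0.07). MYLK fell by 0.47 and ACTG2 by 0.38. TAGLN read 816 and 766 CPM against 854 and 915 CPM and did not pass (log2 change 0.15, adjusted p = 0.3). None passed with all 16 libraries in edgeR's fit, where 2 of the 10 had an unadjusted p under 0.05. Over all genes 229 of 17772 passed there. Marker sums were again lower in shATF4 cells. The epithelial sum was 1688 to 1812 CPM in shCtrl and 648 to 669.8 CPM in shATF4 cells, with 1 of 9 higher and 5 lower and KRT6A and GRHL2 at 0 in both groups. The stellate and fibroblast sum was 17863 to 17868 against 9096 to 9133 CPM, with 5 of 14 higher and 4 lower and LRAT at 0 in both. VIM of that list read 1278 and 1321 CPM in shCtrl and 2264 and 2377 CPM in shATF4 cells. The mesenchymal sum was 28866 to 29635 against 18981 to 20027 CPM, with 2 of 10 higher and 3 lower. The part of these markers in the result was not tested.

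Fewer of the genes differed between hairpins under stress than in DMSO and TGFbeta, where 11.6% and 21.7% of all genes did. The shares of all genes under stress were lower too, and the count in AA_Dep was near its share. In thapsigargin 2 genes were higher in shATF4 cells, MYLK (log2 change 0.57 ± 0.12, adjusted p = 0.009) and TPM1 (0.40 ± 0.08, adjusted p = 0.0099), and TAGLN was lower (-0.56 ± 0.12, adjusted p = 0.014), beside 5.2% of all genes changed, 3.11% higher and 2.09% lower. MYLK read 161 CPM in the 1 shCtrl library and 233 and 239 CPM in shATF4 cells, TPM1 391 CPM against 510.1 and 509.5 CPM, and TAGLN 81.3 CPM against 55.3 and 53.1 CPM. None passed in edgeR's fit with both shCtrl libraries, where 6 had an unadjusted p under 0.05 and where MYLK itself read 161 and 24.8 CPM. Over all genes 41 of 17772 passed in that fit. Without shATF4 thapsigargin replicate 2 only TPM1 passed. In AA_Dep TAGLN alone was lower, at 39.2 and 42.3 CPM against 55.7 and 45.0 CPM (log2 change -0.38 ± 0.11, adjusted p = 0.031), beside 9.91% of all genes changed, 3.87% higher and 6.04% lower. It did not pass without either shATF4 AA_Dep library or without shCtrl AA_Dep replicate 1, where TPM2 and MYLK passed instead. Without shCtrl AA_Dep replicate 2, TAGLN and MYL9 passed.

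The change under stress differed between the hairpins for some genes, in each case with the higher log2 change in shATF4 cells. The AA_Dep response differed between hairpins for ACTA2 (1.18 ± 0.22, adjusted p = 0.003), ACTG2 (0.99 ± 0.23, adjusted p = 0.013) and TPM1 (0.57 ± 0.09, adjusted p = 0.0014), beside 10.6% of all genes, 3.91% higher and 6.65% lower. ACTA2 under AA_Dep was 0.126 of its DMSO level in shCtrl and 0.301 of it in shATF4 cells. Its means under AA_Dep were 3.98 CPM in shCtrl and 4.7 CPM in shATF4 cells, against 31.5 and 15.6 CPM in DMSO. For ACTG2 the means were 2.12 and 2.15 CPM, against 62.7 and 30.8 CPM. The hairpins thus differed more in DMSO than under AA_Dep in these genes. TPM1 under AA_Dep was 0.817 of its DMSO level in shCtrl and 1.27 of it, a rise, in shATF4 cells. The thapsigargin response differed for ACTA2 (1.11 ± 0.25), TPM1 (1.04 ± 0.11) and MYLK (0.98 ± 0.15), beside 6.13% of all genes, 3.67% higher and 2.46% lower, again with 1 shCtrl thapsigargin library. No difference of response passed in edgeR's fit with all 16 libraries, where 2 for AA_Dep and 6 for thapsigargin had an unadjusted p under 0.05. Over all 17772 genes tested there, 12 passed for AA_Dep and 48 for thapsigargin. Without shCtrl AA_Dep replicate 1 the AA_Dep count was 5, with MYL9 and TPM2 added.

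**Figure D2:**
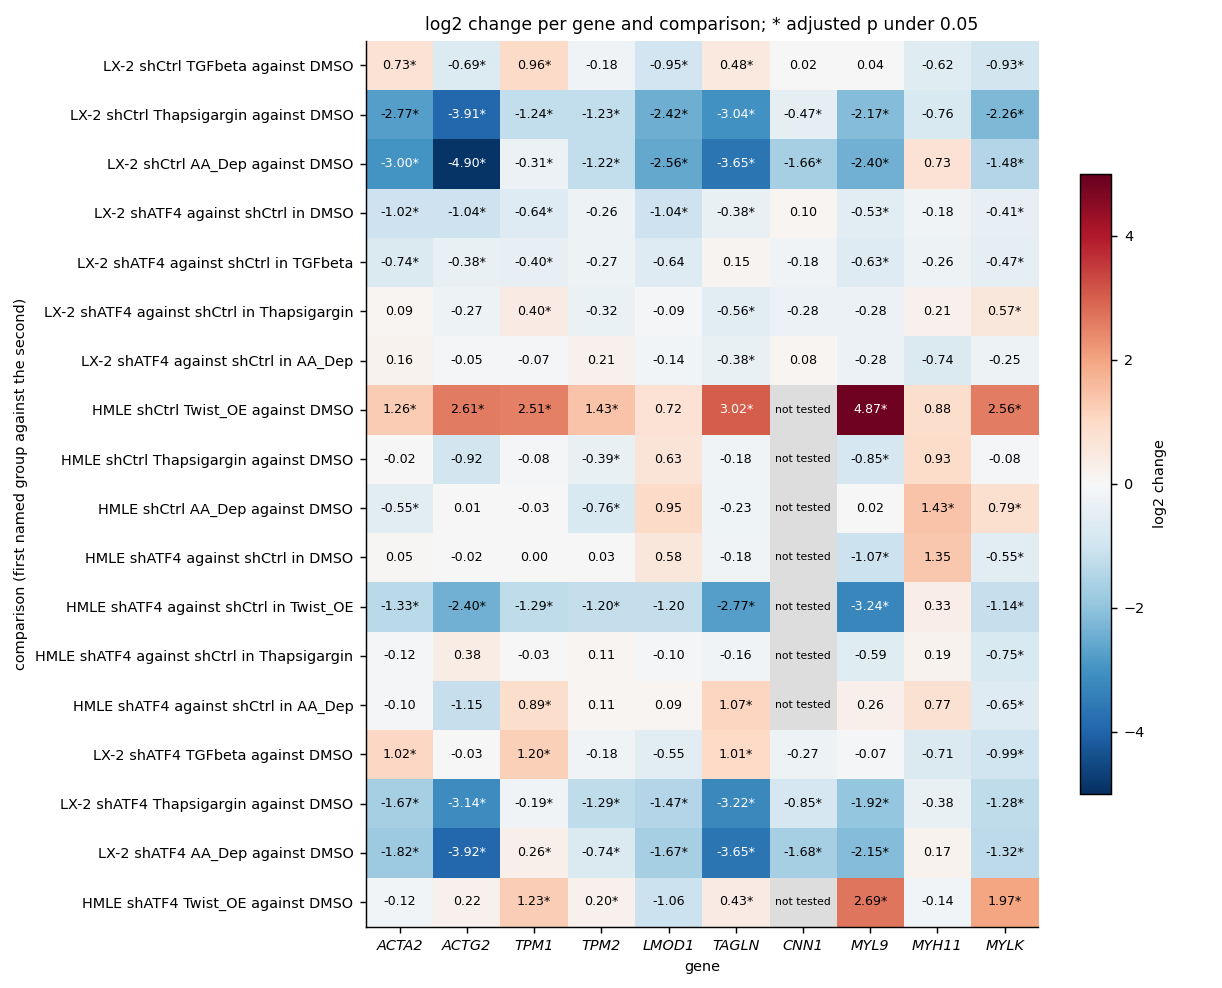
Log2 change of each gene (columns) in each comparison within a line (rows), red for higher and blue for lower in the first named group, with an asterisk where the adjusted p was under 0.05. The rows for LX-2 thapsigargin and AA_Dep and for the hairpin in HMLE Twist_OE cells are blue almost throughout, and the row for Twist_OE in HMLE shCtrl cells is red.

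Genes of the same apparatus that are not among the 10 were counted in the same comparisons in LX-2. These lists were written with earlier results of the series known, so their counts are descriptions, and no difference from the 10 genes was tested. Of 27 tested other smooth muscle cytoskeleton genes, 8 rose and 5 fell with TGFbeta, beside 11.1% and 11% of all genes. In the single thapsigargin library 3 rose and 18 fell, beside 20.2% and 20.4%. Under AA_Dep 6 rose and 12 fell, beside 22.8% and 22.7%, and with the hairpin in DMSO 3 rose and 4 fell, beside 6.28% and 5.3%. With TGFbeta the largest changes were in SORBS2 (4.72, on 6 counts over the DMSO and 148 over the TGFbeta libraries), SYNPO2 (-1.70), ITGA7 (-1.70) and KCNMB1 (1.62), the beta subunit of the smooth muscle calcium-activated potassium channel. KCNMB1 stood at 2.8 CPM in shCtrl DMSO cells and had no count in the AA_Dep libraries, which allows up to 0.0836 CPM.

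The relatives of the contractile genes include cytoplasmic, non-muscle and striated muscle forms. Of 21 actin, tropomyosin and myosin paralogues tested, 7 rose and 1 fell with TGFbeta, beside 11.1% and 11% of all genes. Under AA_Dep 4 rose and 6 fell, a share near the 45.6% of all genes that changed, and the median change was -0.005 beside 0.02 over all genes. ACTB, the cytoplasmic beta actin, fell by 1.05 under thapsigargin and by 0.80 under AA_Dep, and its change with TGFbeta (0.04) did not pass. The cardiac actin ACTC1 rose with TGFbeta (1.41) and fell under AA_Dep (-2.42). Among 18 genes that control light chain phosphorylation, PRKG1, the cGMP-dependent kinase that favours relaxation, showed the largest change under both stresses, 4.97 in thapsigargin and 4.92 in AA_Dep, on 11 counts over the DMSO libraries, and CALM3, a calmodulin gene, fell in both (-1.50 and -1.25).

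Among SRF and its cofactors, MYOCD and MRTFA were lower under both stresses in shCtrl cells and with the hairpin in DMSO and TGFbeta. MYOCD read 27.1 and 20.0 CPM in shCtrl DMSO cells, 31.2 and 27.8 CPM in TGFbeta, 1.68 CPM in the thapsigargin library and 4.15 and 6.41 CPM under AA_Dep. It fell by 3.90 under thapsigargin (adjusted p = 2.1e-07) and by 2.18 under AA_Dep (adjusted p = 6e-07). The hairpin lowered MYOCD to 166 and 210 counts in DMSO, a mean of 10.7 ± 0.982 CPM (SD, n = 2; log2 change -1.15, adjusted p = 0.0014) and to 17.6 and 17.5 CPM in TGFbeta (-0.76, adjusted p = 0.0089).

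MRTFA read 90.8 and 94.6 CPM in shCtrl DMSO, 121 and 122 CPM in TGFbeta (log2 change 0.52, adjusted p = 0.00055), 65.2 CPM in the thapsigargin library (-0.61, adjusted p = 0.00056) and 82.7 and 70.1 CPM under AA_Dep (-0.30, adjusted p = 0.014). With the hairpin MRTFA read 72.9 and 69.2 CPM in DMSO (-0.40, adjusted p = 0.01) and 77.0 and 71.2 CPM in TGFbeta (-0.73, adjusted p = 3.6e-05). MRTFB passed in thapsigargin only (-0.59, adjusted p = 0.037) among these 5 comparisons.

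KLF4, a factor known to repress the contractile programme, was higher under stress in shCtrl cells, and higher with the hairpin in DMSO. KLF4 read 6.03 and 5.35 CPM in shCtrl DMSO cells and 29.6 and 27.8 CPM under AA_Dep (log2 change 2.31, adjusted p = 3.8e-09). It read 15.5 and 16.9 CPM in shATF4 DMSO cells (log2 change 1.49, adjusted p = 7.6e-06). In the shCtrl thapsigargin library it read 23.8 CPM (log2 change 1.96, adjusted p = 1.8e-07), and 2.62 CPM in the discordant one. In shATF4 cells KLF4 read 16.2 and 18.1 CPM under AA_Dep and 16.8 and 21.0 CPM in thapsigargin, and neither stress passed there. Under AA_Dep the hairpin lowered KLF4 (log2 change -0.82, adjusted p = 0.001). SRF itself read 81.4 and 87.8 CPM in shCtrl DMSO, and its changes with TGFbeta (0.07), thapsigargin (-0.12), AA_Dep (0.26) and the hairpin in DMSO (-0.25) did not pass, while the hairpin lowered SRF in TGFbeta (-0.39, adjusted p = 0.025). CARMN, a long non-coding RNA of the smooth muscle lineage, rose from 0.374 and 0.324 CPM to 8.19 and 11.5 CPM with TGFbeta (log2 change 4.92, adjusted p = 8.5e-08), and stood at 1.99 and 1.32 CPM in TGFbeta with the ATF4 hairpin (log2 change -2.58, adjusted p = 1.7e-05). The parts of these regulators in the changes of the contractile genes were not tested.

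**Figure D3:**
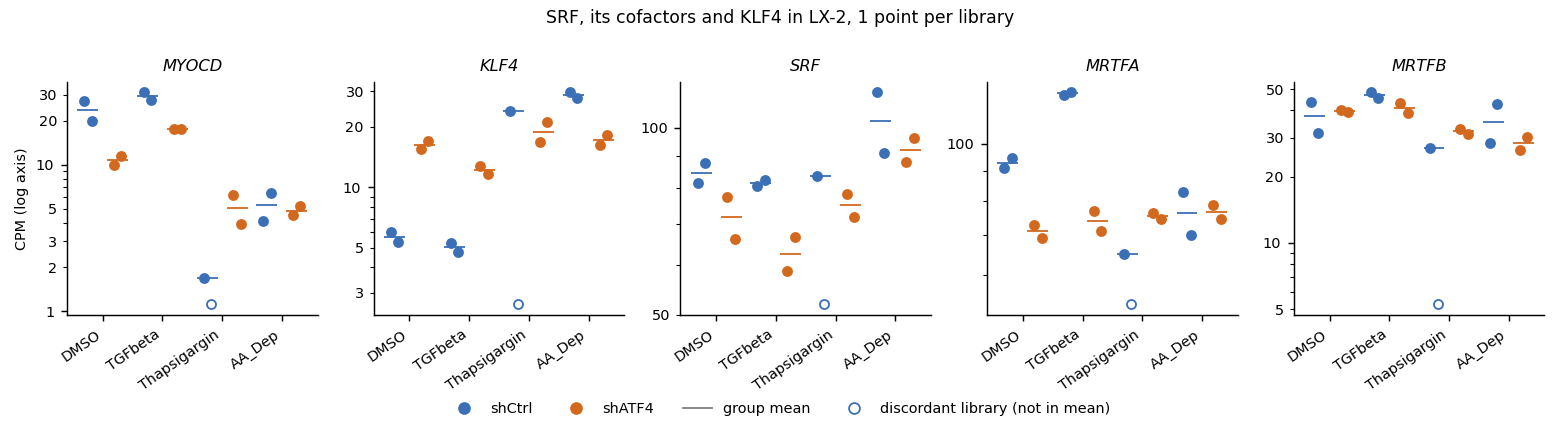
CPM of MYOCD, KLF4, SRF, MRTFA and MRTFB in LX-2 on log axes, 1 point per library, with a line at the group mean and an open circle for the discordant library. MYOCD is lower under both stresses and with the ATF4 hairpin in DMSO and TGFbeta, KLF4 is higher under both stresses in shCtrl cells and with the hairpin in DMSO and TGFbeta, and SRF lies between 58.8 and 114 CPM in the libraries drawn filled.

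In HMLE, Twist_OE raised 7 of the 9 genes tested, beside 57.2% of 17940 genes changed, 28.3% higher and 28.9% lower. CNN1 was too low to be tested, with a single count over both Twist_OE libraries. MYL9 read 2.38 and 2.64 CPM in shCtrl DMSO and 72.4 and 72.9 CPM in shCtrl Twist_OE cells (log2 change 4.87 ± 0.18, adjusted p = 2e-14). TAGLN went from 7.02 and 6.89 CPM to 55.6 and 56.1 CPM (log2 change 3.02 ± 0.11, adjusted p = 8.9e-15). In both genes the Twist_OE libraries lay far above every other HMLE library.

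MYLK went from 15.6 CPM in both DMSO libraries to 98.9 and 84.2 CPM (log2 change 2.56 ± 0.09). TPM1 went from 94.1 ± 1.22 CPM (SD, n = 2) to 524 and 544 CPM (log2 change 2.51 ± 0.05), and TPM2 from 234 and 240.0 CPM to 625 and 642 CPM (log2 change 1.43 ± 0.04). ACTA2 rose least of the 7, from 4.06 and 5.57 CPM to 11.5 and 11.3 CPM (log2 change 1.26 ± 0.15, adjusted p = 7.5e-07). ACTG2 passed the test with 4 and 2 counts in DMSO and 14 and 23 in Twist_OE. MYH11 and LMOD1, with at most 12 counts per library in these groups, did not pass. Set against LX-2 shCtrl DMSO cells, HMLE Twist_OE cells did not differ in TPM2 by the test (LX-2 minus HMLE -0.03 after TMM scaling, which took 0.15 from each log2 difference, adjusted p = 0.84), with 636 and 737 CPM in LX-2. The other 9 genes were higher in LX-2, beside 63.8% of all genes that differed. The smallest of those differences was in TPM1, 1.61-fold, and MYL9 was 22.1-fold higher in LX-2.

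The ATF4 hairpin lowered 7 of the 9 genes in Twist_OE cells, beside 47.2% of all genes changed and 23.9% lower. MYL9 read 72.4 and 72.9 CPM in shCtrl and 7.07 and 8.52 CPM in shATF4 cells (log2 change -3.24 ± 0.15, adjusted p = 1.5e-12). TAGLN read 55.6 and 56.1 CPM against 7.83 and 8.86 CPM (log2 change -2.77 ± 0.10, adjusted p = 4.3e-14). ACTA2 read 11.5 and 11.3 CPM against 4.34 and 4.86 CPM (log2 change -1.34 ± 0.15), which was within its range in DMSO. TPM1 fell by 1.29, TPM2 by 1.20, MYLK by 1.14 and ACTG2 by 2.40, the last on 4 and 3 counts in shATF4 cells and not passing with DESeq2 (adjusted p = 0.071). The difference between hairpins in the Twist_OE response passed for 6 of 9, all smaller in shATF4 cells, beside 29.7% of all genes. Within shATF4 cells Twist_OE still raised MYL9 (2.69), MYLK (1.97), TPM1 (1.23), TAGLN (0.43) and TPM2 (0.20), 5 of 9 beside 35.3% of all genes, in a comparison added after the data were seen. TAGLN there did not pass with DESeq2, without shATF4 DMSO replicate 1 or without shATF4 Twist_OE replicate 2.

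These Twist_OE groups also differed in TWIST1 and in epithelial and mesenchymal markers. TWIST1 read 119 and 137 CPM in shCtrl Twist_OE, 29.9 and 31.2 CPM in shATF4 Twist_OE and 16.3 and 16.8 CPM in shCtrl DMSO cells. The summed level of 16 epithelial markers was 1924 to 1952 CPM in shCtrl Twist_OE, 9177 to 9502 CPM in shATF4 Twist_OE and 11891 to 12008 CPM in shCtrl DMSO libraries, and all 16 were higher with the hairpin in Twist_OE cells. None of the 16 was at 0 in any of these groups. Of 10 mesenchymal markers 9 were lower with the hairpin, and their sum was 15016 to 18689.7 CPM in shCtrl and 4213 to 4944 CPM in shATF4 Twist_OE cells, where SNAI1 was at 0. In bulk RNA a smaller share of cells with a high level and a lower level per cell cannot be told apart, and the part of TWIST1 and of these markers in the contractile gene values was not tested.

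**Figure D4:**
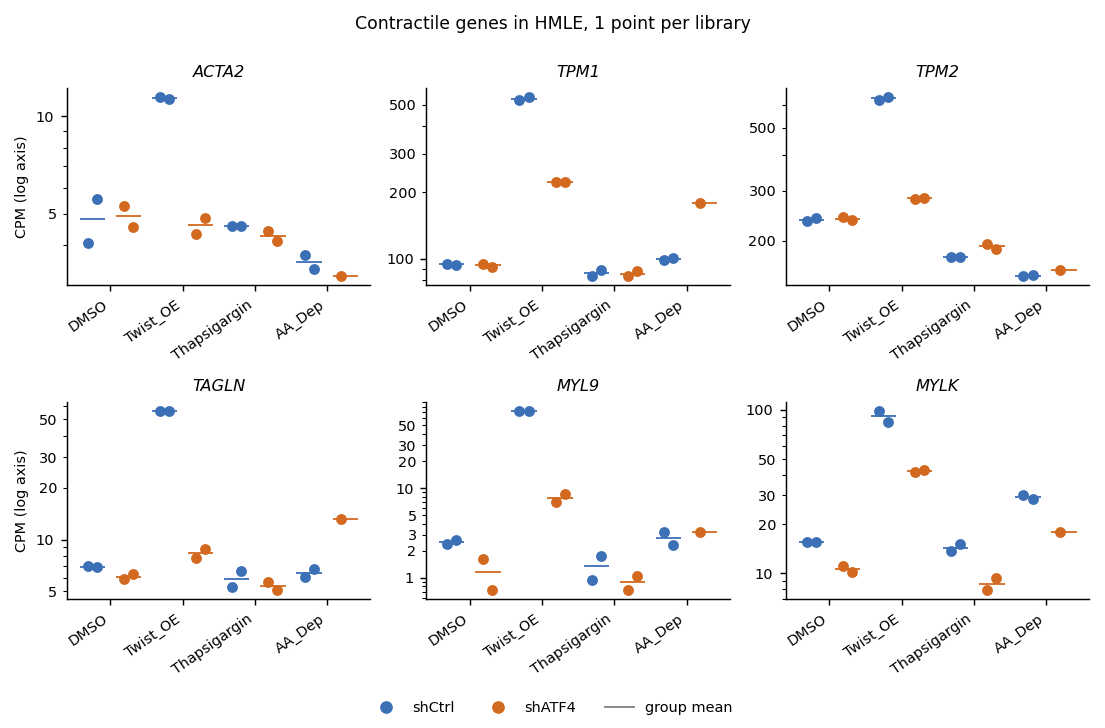
CPM of the 6 genes with at least 15 counts in every HMLE library, on log axes, 1 point per library, blue for shCtrl and orange for shATF4, with a line at the group mean. The shCtrl Twist_OE pair is the highest in every panel, and the shATF4 Twist_OE pair lies below it. The shATF4 AA_Dep group has 1 library.

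The related lists were counted in HMLE too, with no test of the lists. Of 25 other smooth muscle cytoskeleton genes tested 20 rose and 1 fell with Twist_OE, beside 28.3% and 28.9% of all genes. With the hairpin in Twist_OE cells 2 rose and 19 fell, beside 23.3% and 23.9%. NEXN (nexilin, an actin binding protein) rose by 4.51, FHL1 by 3.80 and TGFB1I1 by 3.24 with Twist_OE, and with the hairpin in Twist_OE cells FHL1 fell by 2.60 and NEXN fell by 2.34. Among the paralogues, 11 of 20 rose and 2 fell with Twist_OE. The non-muscle heavy chain MYH14 went the other way: it had 446 counts over the shCtrl DMSO libraries and 5 over the shCtrl Twist_OE libraries (log2 change -6.37), and was higher with the hairpin in Twist_OE cells (log2 change 5.99). MYOCD had at most 2 counts over the libraries of any HMLE group, so it was not tested within that line.

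**Figure D5:**
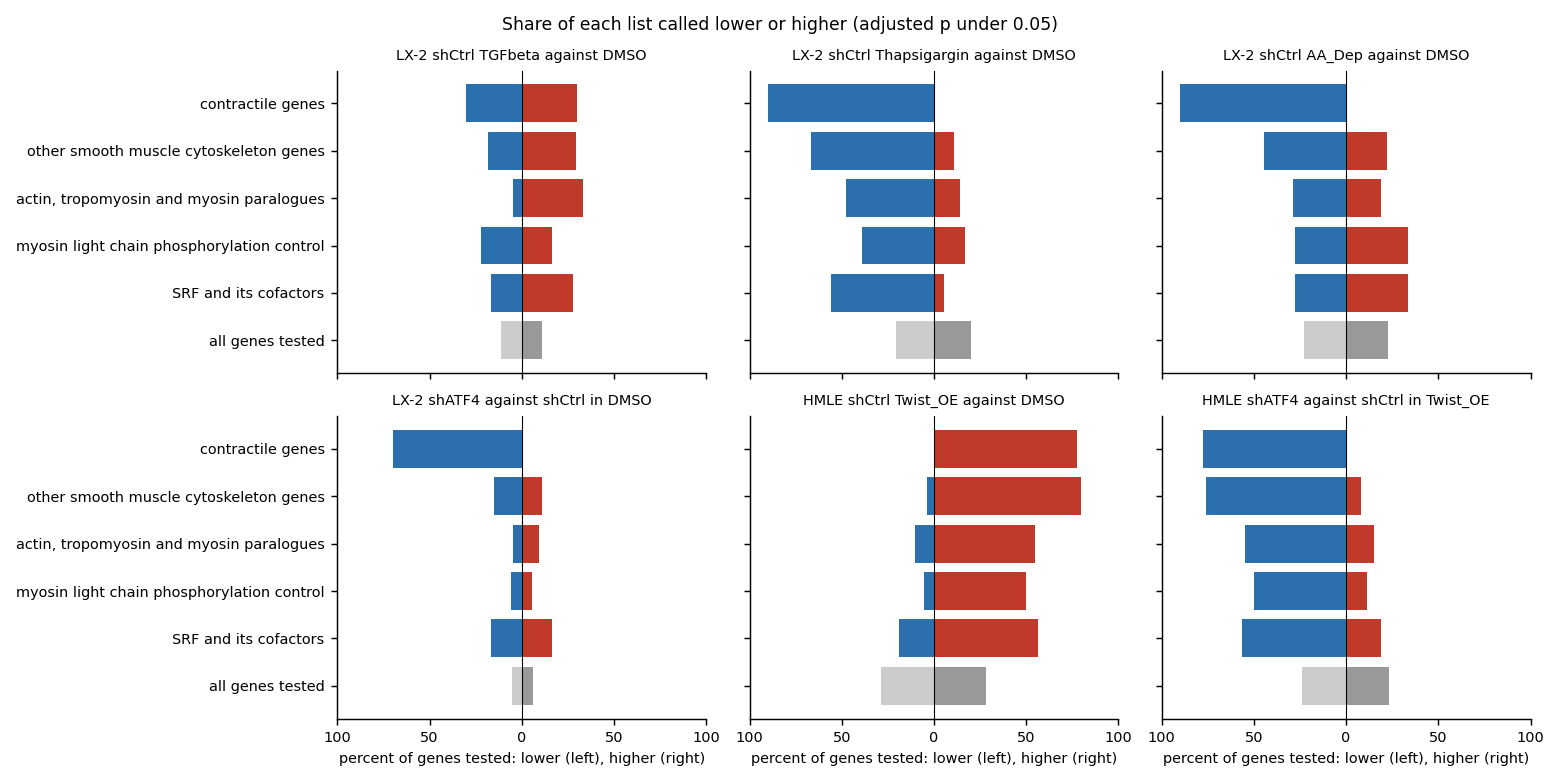
Percent of the tested genes of each list that were lower (left, blue) or higher (right, red) in 6 comparisons, with all genes tested in grey. The contractile genes are one-sided in every panel but that of TGFbeta, where 3 of 10 were higher and 3 lower.

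Stress moved few of the genes in HMLE. In thapsigargin MYL9 (log2 change -0.85 ± 0.29, adjusted p = 0.029) and TPM2 (-0.39 ± 0.04, adjusted p = 9.9e-07) fell, 2 of 9 beside 36.8% of all genes. MYL9 had 54 counts in each DMSO library and 20 and 39 in thapsigargin, and it did not pass without either DMSO library or without thapsigargin replicate 1. TPM2 read 234 and 240.0 CPM against 175 and 176 CPM. In AA_Dep TPM2 read 150.1 and 152 CPM (log2 change -0.76 ± 0.04, adjusted p = 3.9e-11) and MYLK 29.9 and 28.5 CPM, above 15.6 CPM in DMSO (log2 change 0.79 ± 0.10, adjusted p = 1.7e-06). ACTA2 fell by 0.55 and MYH11 rose by 1.43 on 3 to 13 counts, which made 4 of 9 beside 61.7% of all genes. ACTA2 and MYH11 did not pass with DESeq2 (adjusted p = 0.11 and 0.092), nor without either shCtrl AA_Dep library.

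The hairpin changed few of them in the other HMLE conditions. In DMSO it lowered MYL9 (-1.07 ± 0.30, adjusted p = 0.024) and MYLK (-0.55 ± 0.11, adjusted p = 0.0027), 2 of 9 beside 12.8% of all genes changed, 6.08% higher and 6.72% lower. MYL9 did not pass without either shCtrl DMSO library or without shATF4 DMSO replicate 2. MYLK was also lower in thapsigargin, at 7.88 and 9.32 CPM against 14.3 ± 0.961 CPM (SD, n = 2; log2 change -0.75 ± 0.12, adjusted p = 9.4e-05), 1 of 9 beside 24.3%, and in AA_Dep (-0.65 ± 0.13, adjusted p = 0.0015). Thus MYLK was lower with the hairpin in all 4 HMLE conditions. In the 1 shATF4 AA_Dep library TAGLN read 13.1 CPM against 6.03 and 6.78 CPM (log2 change 1.07 ± 0.15, adjusted p = 4.3e-05) and TPM1 179 CPM against 98.6 and 101 CPM (0.89 ± 0.06, adjusted p = 2.4e-09), which with MYLK made 3 of 9 beside 16.9%. The AA_Dep response differed between hairpins for both genes, 1.25 for TAGLN and 0.89 for TPM1, 2 of 9 beside 5.09%. For thapsigargin none of 9 differed, beside 4.56%, with 0 at an unadjusted p under 0.05 in edgeR's fit and 0 called by DESeq2.

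The stress responses differed between the lines. Under AA_Dep the change was more negative in LX-2 than in HMLE for 8 of the 10 genes, beside 40.3% of all genes that differed and 19.3% lower. In the HMLE libraries compared, ACTG2 had 2 to 4 counts and LMOD1 2 to 9, so their differences rest on few reads there. The differences were -4.94 ± 0.93 for ACTG2, -3.55 ± 0.64 for LMOD1, -3.44 ± 0.18 for TAGLN, -2.48 ± 0.23 for ACTA2, -2.45 ± 0.32 for MYL9, -2.29 ± 0.14 for MYLK, -0.49 ± 0.18 for TPM2 and -0.31 ± 0.09 for TPM1. With all LX-2 libraries, or with only the compared groups, 6 of these passed, without the tropomyosins. Under thapsigargin, with 1 LX-2 shCtrl library, the change was also more negative in LX-2 for LMOD1 (-3.07), which had 2 to 9 counts in the HMLE libraries. The differences were -2.87 ± 0.18 for TAGLN, -2.77 ± 0.25 for ACTA2 and -2.20 ± 0.16 for MYLK, and smaller for MYL9, TPM1 and TPM2. The value for CNN1 (-5.10 ± 1.75) rests on 0 and 0 counts against 6 and 0 counts in HMLE. With the discordant library in the fit 6 of the 10 genes passed for thapsigargin, and the differences for MYL9 (0.16) and TPM2 (1.38) changed sign.

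In ACTA2, ACTG2, TAGLN, CNN1, MYL9, TPM2 and LMOD1 the DMSO and TGFbeta groups of LX-2 all had higher means than the 4 stress groups. The order within these sets of groups varied between the genes. ACTA2, ordered by group mean, ran from shCtrl TGFbeta (47.9 CPM) over shCtrl DMSO (31.5), shATF4 TGFbeta (29.0) and shATF4 DMSO (15.6) to the 4 stress groups between 5.2 and 3.98 CPM, and among neighbours in this order only shATF4 and shCtrl thapsigargin overlapped. TAGLN differed in having its highest mean in shATF4 TGFbeta cells (885 CPM), above shCtrl TGFbeta (791 CPM). MYLK, ACTG2, LMOD1, MYL9 and TPM2 were highest in shCtrl DMSO cells, CNN1 in shATF4 DMSO and TPM1 in shCtrl TGFbeta cells. In TPM1 the AA_Dep means (706 and 701 CPM) were above shATF4 DMSO (555 CPM). In MYLK shCtrl AA_Dep (261 CPM) stood above shATF4 TGFbeta (251 CPM), with overlapping libraries. MYH11 was highest in shCtrl AA_Dep, at 2.48 CPM, and the ranges of its other LX-2 groups overlapped their neighbours'.

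Over 8 LX-2 group means of log2 CPM, which share libraries and depth, the median correlation among the 45 pairs of genes was 0.752. The highest, 0.989, was between ACTG2 and MYL9, and the lowest, -0.648, between CNN1 and MYH11. In HMLE the median was 0.24, with MYL9 and TPM1 as the highest pair (0.96) and ACTA2 and MYH11 as the lowest (-0.456). Over 16 group means centred within each line, among 13246 genes with at least 5 CPM in a group, the gene most like ACTA2 was MORF4L1 (r = 0.973), then RSU1 (0.96) and PPME1 (0.955). MYL9 was most like LIMS2 (0.976), IL1R1 (0.958) and PARVA (0.955), TAGLN like FRG1CP (0.972), CYTL1 (0.967) and SLC2A10 (0.957), and ACTG2 like SLC2A10 (0.967), PALM (0.966) and CYTL1 (0.964).

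For TPM1 the most alike were STARD4-AS1 (0.963), AEBP1 (0.96) and ABL1 (0.951), and for TPM2 RTL8C (0.956), ZBED1 (0.947) and GNAI2 (0.943). MYLK was most like CALHM2 (0.933), MFGE8 (0.931) and IL1R1 (0.924), CNN1 like NAXD (0.929), TMEM43 (0.915) and FNDC3B (0.855), and LMOD1 like DPP7 (0.917) and GYG2 (0.9), with 1 gene ranked between them left unnamed. MYH11 was under the level set for this list.

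Some of the genes share part of their annotated span with another gene. The strand used in counting is not given in the sources used here, so how reads of shared bases were assigned is not known. Whether exons overlap was not examined. MYH11 overlaps NDE1, which read 91.3 CPM in LX-2 shCtrl DMSO and fell by 0.79 under thapsigargin, against 1.48 CPM for MYH11. TPM1 overlaps TPM1-AS, at 13.2 CPM in DMSO and 31.1 CPM in TGFbeta (log2 change 1.37, adjusted p = 3e-06). ACTA2 overlaps FAS, which fell by 1.05 with TGFbeta while ACTA2 rose, and ACTA2-AS1, at no more than 0.33 CPM in any group. TAGLN overlaps PCSK7, at 29.4 to 52.1 CPM, MYL9 overlaps DLGAP4-AS1, at no more than 0.834 CPM, and MYLK overlaps MYLK-AS1, at no more than 1.7 CPM, and MYLK-AS2, at no more than 0.116 CPM.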

How the data were processed

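RNA sequencing counts of 32 LX-2 and HMLE samples were used, and 9 ChIP-seq samples were not analysed here. The authors deposited raw counts per Ensembl gene, whole numbers with no normalization. The submitters' processing notes name cutadapt, Bowtie2, STAR, HOMER, featureCounts and DESeq and the builds hg19 and hg38, with no version or role. RNA was extracted and amplified with column and SMARTer kits, per the labels' protocols. Rows with no gene name held no counts.

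From these counts, CPM (counts divided by the library total and rescaled) and edgeR 4.0.16 fits (R 4.3.3) were computed: TMM scaling, the default low-count filter, quasi-likelihood tests within each line or over both, and Benjamini-Hochberg adjustment over all genes tested at 0.05. CPM in the text is not TMM scaled, and the scaling moved all log2 changes of a comparison by between -0.19 and 0.13. Adjusted p-values in the text are from these fits unless DESeq2 1.42.0 is named. LX-2 fits left out the discordant library, and groups with 1 library borrowed the spread of the others. The members and lists were chosen with earlier results of these data known. From each list of related genes up to 4 that passed with the largest change and 2 of the highest level otherwise were eligible to be named. SRF, MYOCD, CARMN and the marker genes given with levels, and the shATF4 responses, were added after values were seen. Statistics were tested on simulated data. Alternatives were DESeq2, its size factors, no filter, a replicate block, only the compared groups, the discordant library, and each library left out. Replicate numbers did not pair the samples.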

Additional observations from a re-analysis of the deposited data

Results flagged for a closer look

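Groups held at most 2 libraries, so no library was tested as an extreme one within its group. The values here are responses that differed between the hairpins or between the lines by a test of the difference itself, an interaction term in edgeR's fit with adjusted p under 0.05.

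Between the hairpins in LX-2, shATF4 minus shCtrl, the thapsigargin response differed by 1.11 for ACTA2, 1.04 for TPM1 and 0.98 for MYLK on the log2 scale, with 1 shCtrl library. The AA_Dep response differed by 1.18 for ACTA2, 0.99 for ACTG2 and 0.57 for TPM1. In HMLE the Twist_OE response differed by -2.59 for TAGLN, -2.17 for MYL9, -1.38 for ACTA2, -1.29 for TPM1, -1.23 for TPM2 and -0.59 for MYLK. The HMLE AA_Dep response differed by 1.25 for TAGLN and 0.89 for TPM1, with 1 shATF4 library.

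Between the lines in shCtrl cells, LX-2 minus HMLE, the thapsigargin response differed by -5.10 for CNN1, -3.07 for LMOD1, -2.87 for TAGLN, -2.77 for ACTA2, -2.20 for MYLK, -1.33 for MYL9, -1.17 for TPM1 and -0.86 for TPM2. The AA_Dep response differed by -4.94 for ACTG2, -3.55 for LMOD1, -3.44 for TAGLN, -2.48 for ACTA2, -2.45 for MYL9, -2.29 for MYLK, -0.49 for TPM2 and -0.31 for TPM1. In the HMLE libraries of these comparisons CNN1, ACTG2 and LMOD1 had at most 9 counts each.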

How the results depend on the processing

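The discordant LX-2 library had the largest effect. With it in the fit the count of the 10 genes called was 1 for TGFbeta in shCtrl cells, 6 for thapsigargin and 7 for AA_Dep. For the hairpin in DMSO, TGFbeta, thapsigargin and AA_Dep it was 1, 0, 0 and 0. It was 0 for the differences in thapsigargin and AA_Dep response. For TGFbeta, thapsigargin and AA_Dep in shATF4 cells the count was 1, 3 and 5, and for the line difference in each stress response it was 6. Calls over all genes were also few in the LX-2 fit: 560 of 17772 tested for TGFbeta in shCtrl cells, against 4129 of 18649 without this library. For the hairpin in those 4 conditions they were 43, 229, 41 and 16. The common biological coefficient of variation, a measure of spread between samples, was 29.5% with the library and 9.21% without it. LX-2 against HMLE in DMSO gave 10 and LX-2 DMSO against HMLE Twist_OE gave 9, as without it. It turned thapsigargin estimates for CNN1 (0.33) and TPM2 (1.20) and line differences for MYL9 (0.16) and TPM2 (1.38). In place of its replicate, a choice made after seeing the data, it gave CNN1 0.79, MYL9 0.18, TPM2 2.00 and MYH11 1.61 for thapsigargin. For the hairpin in thapsigargin it gave MYH11 -2.18, and for the difference between hairpins MYL9 -2.10 and MYH11 -1.99. For the line difference it gave MYL9 0.89 and TPM2 2.25. Fitting only the compared groups gave 5 for the hairpin in thapsigargin, 0 for it in AA_Dep and 2 for the difference in TGFbeta response. DESeq2 gave 1 for that difference and 2 for HMLE AA_Dep. With no filter that difference gave 1 and the hairpin in LX-2 AA_Dep 2. Leaving out 1 library at a time gave 3 to 6 genes for the hairpin in LX-2 DMSO, 1 to 2 in thapsigargin and 0 to 2 in AA_Dep, 2 to 3 and 2 to 5 for the differences in thapsigargin and AA_Dep response, 1 to 2 for HMLE thapsigargin, 2 to 4 for HMLE AA_Dep and 1 to 2 for the hairpin in HMLE DMSO. Other counts stayed within 1.5 times the value reported. Differences in log2 CPM between replicates 1 and 2 of a group were correlated over genes with those of the group it was compared with. These correlations lay between -0.169 and 0.168 over 19 comparisons, 6 of them below 0. A replicate block changed 1 call, ACTG2 in the line difference for thapsigargin (-3.05), for a count of 9. Causes of these changes were not tested. MYH11 and LMOD1 in both lines, and ACTG2 and CNN1 in HMLE, had too few reads for small changes to be detectable.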
